A study of Oryctolagus cuniculus with 134 samples.

Results

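The genes described here were the tumour necrosis factor (TNF) superfamily ligands and receptors of the rabbit, together with the TNF receptor-associated factors (TRAFs) that bind the receptors inside the cell. Members were found by name, through a rule that uses no measured value: the symbol had to be TNF, LTA or LTB, or to begin with TNFSF, TNFRSF or TRAF and a digit from 1 to 7. The rule found 28 of the 29587 genes counted, of which 14716 carried a symbol. They were 10 ligands, 11 receptors, 5 TRAF adaptors and 2 genes for TRAF-interacting proteins. LTA and TNFRSF11A, the receptor known as RANK, were not analysed here.

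Total RNA was sequenced from the aorta (Ao) and from the aortic (AoV), mitral (MV), pulmonary (PV) and tricuspid (TV) valves of 27 male New Zealand White rabbits, 12 weeks old at the start of a 16-week protocol, which gave 134 libraries. Ctrl rabbits ate chow without vitamin D2, CHT rabbits a diet with 0.3% cholesterol, and Lard rabbits a diet with 5% lard. IR/CHT rabbits received the CHT diet and, after 8 weeks, X-ray irradiation of the heart directed at the aortic valve and thoracic aorta, 24 Gy in 3 fractions of 8 Gy. The CHT, IR/CHT and Lard groups were also given vitamin D2 (25000 U per day for each 2.5 kg of body weight, for 15 days) and Ctrl was not, so diet and vitamin D2 cannot be told apart against Ctrl. Each group held 7 rabbits, apart from 6 in CHT and 6 in the mitral valve of Ctrl. The libraries held 13564979 to 50577676 read pairs assigned to genes (median 18235577). Levels are in CPM, which is counts per 1000000 read pairs, scaled over all libraries together and given as the lowest, median and highest library of a group. At the median depth 1 CPM stood for 18.2 read pairs and a counting error of 23.4%, and 0.1 CPM for 1.82 read pairs.

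The ligands are mostly trimeric membrane proteins, several of which are cut from the surface and act at a distance. Their receptors either carry a death domain that can start cell death or recruit TRAFs, which pass the signal on to NF-kB and stress kinases. TNF itself activates endothelium and macrophages in inflamed arteries, and the pair formed by RANK ligand (TNFSF11) and its decoy receptor osteoprotegerin (TNFRSF11B) governs the making of bone-resorbing osteoclasts and has long been followed in calcifying vessels and valves.

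A member passed the test when edgeR gave an adjusted p under 0.05, over all genes of the tissue, and a fold change over 1.5. In the aorta 13 of the 24 members tested passed in CHT against Ctrl, where 19.4% of all genes tested passed. Of these 11 were higher and 2 lower, beside 14.2% and 5.18% of all genes. IR/CHT against Ctrl gave 14 of 24 in the aorta (34.3% of all genes), 13 of them higher (22.2%) and 1 lower (12.2%). Lard gave 4 there (2.61%), all higher (2.57%). CHT in the aortic valve gave 5 of 24 (11.9%), 4 higher (8.42%) and 1 lower (3.48%), and IR/CHT gave 12 (42.8%), 7 higher (21.1%) and 5 lower (21.7%). IR/CHT against CHT gave 5 of 24 in that valve (19.7%), 2 higher (9.9%) and 3 lower (9.85%), and Lard gave 1 (0.234%), higher (0.026%). The mitral valve gave 3 of 21 in CHT (5.62%), 2 higher (4.98%) and 1 lower (0.64%), and 7 in IR/CHT (17.7%), 5 higher (11.1%) and 2 lower (6.65%). The counts in the aortic valve for IR/CHT against Ctrl and against CHT lay near the shares of all genes, and are no result about the members. The comparisons with Ctrl share the same Ctrl libraries within a tissue. The filter on low counts was passed only with the help of the treated libraries by 9 of the members tested in the aorta (LTB, TNF, TNFSF4, TNFSF8, TNFSF11, TNFSF13, TNFSF15, TNFRSF8 and TNFRSF9), by 7 in the aortic valve (LTB, TNF, TNFSF8, TNFSF14, TNFSF15, TNFRSF8 and TNFRSF9) and by 3 in the mitral valve (TNF, TNFSF15 and TNFRSF8), and these had to differ to be tested at all, so the counts above favour such members. TNFSF18, TNFRSF13B and TNFRSF17 passed the filter in no tissue, with 67 and 22 read pairs of TNFSF18 and TNFRSF13B over all 134 libraries.

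**Figure D1:**
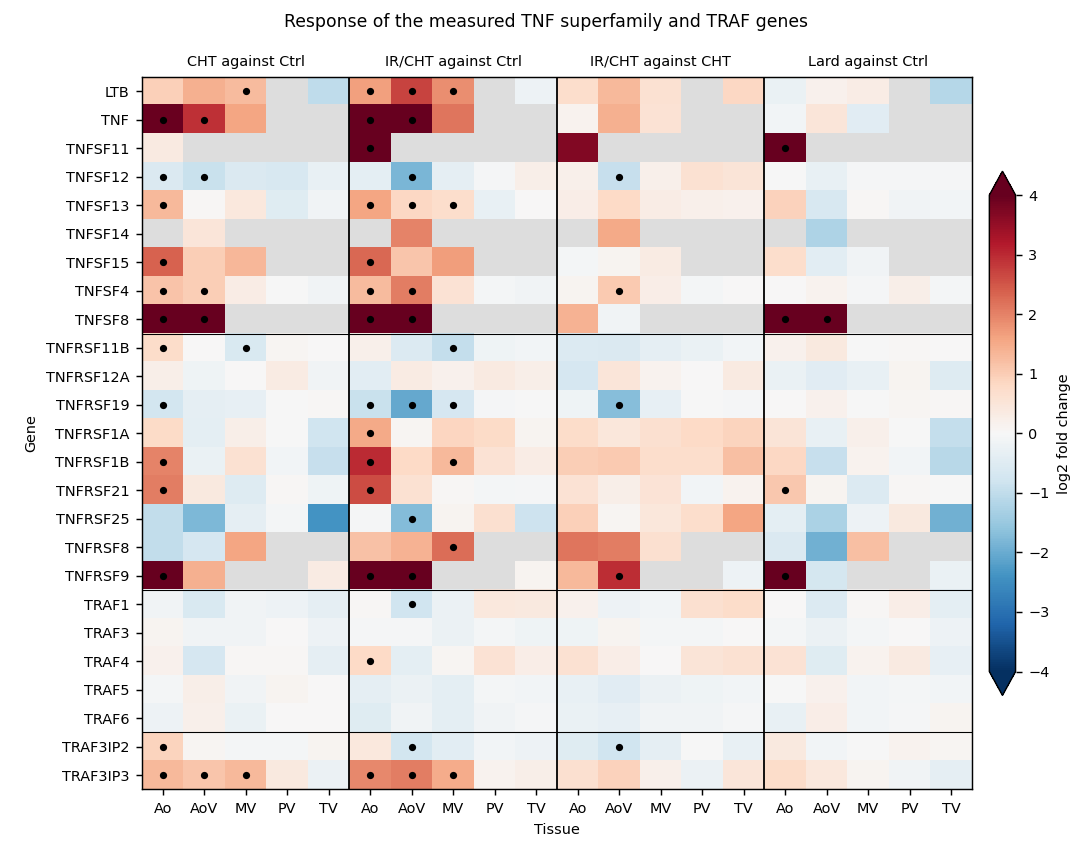
Log2 fold change of each member (rows) in each comparison and tissue (columns), capped at 4 in either direction, with a dot where the adjusted p was under 0.05 and the fold over 1.5 and grey where a member was not tested. The dots gather in CHT and IR/CHT against Ctrl in the aorta and aortic valve, with none in the pulmonary and tricuspid valves.

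Some facts of the libraries touch most of these results. Macrophage marker genes rose in the same comparisons: 12 and 14 of 14 markers passed the test, all higher, in the aorta in CHT and IR/CHT against Ctrl, 8 and 12 in the aortic valve, 10 and 12 in the mitral valve, and 7 in the aorta in Lard. The summed level of these markers was 215 to 546.1 CPM in Ctrl aorta, 857 to 2098 in CHT, 1239.7 to 3971 in IR/CHT and 389 to 851 in Lard. The aortic valve sum was 628 to 1015 CPM in Ctrl, 1552 to 1999 in CHT and 3582 to 5332 in IR/CHT, and the mitral valve sum 493 to 1015 in Ctrl, 1040 to 1948 in CHT and 1363 to 2725 in IR/CHT. T cell markers (8 of the 14 listed had a row) summed to 0.699 to 5.21 CPM in Ctrl aorta, 17.6 to 40.7 in CHT, 19.0 to 47.0 in IR/CHT and 0.837 to 16.0 in Lard. Their aortic valve sum was 2.10 to 5.84 CPM in Ctrl, 17.6 to 35.7 in CHT and 44.9 to 93.8 in IR/CHT, and their mitral valve sum 1.78 to 6.16, 7.58 to 23.9 and 11.4 to 42.8. No defining marker of either type was at 0 across a whole group of the aorta or mitral valve, and TRAT1, a T cell marker, was at 0 in all CHT and all Lard aortic valves. In bulk tissue fewer cells of a type and less RNA per cell cannot be told apart, and the part of these cells in the results was not tested. The Ctrl aortas carried their defining genes: smooth muscle markers summed to 84901 to 119531 CPM in Ctrl aorta and to 1121 to 1800 in Ctrl aortic valve. In the IR/CHT pulmonary valves the highest library reached 21418 CPM of these markers, where the median was 1547. The lowest endothelial sum of that group was 108 CPM, where the median was 1414. The pulmonary valve results include these libraries, and whether each matched its label was not tested. In all 7 libraries stood apart on the main axis of spread within groups, which took 22.6% of that spread: Ctrl L150 and L277, CHT L151 and IR/CHT L194 in the aortic valve, Ctrl L168 and IR/CHT L197 in the tricuspid valve and IR/CHT L275 in the pulmonary valve. Where this axis served as a covariate, its score was centred on the tissue and not on the group. The score could then also take up part of a treatment effect, and a call lost with it may reflect that. In IR/CHT aorta the smooth muscle sum was 12062 to 63442 CPM, and 7 of its 8 markers were lower. The sum was 33458 to 84828 CPM in CHT aorta, below every Ctrl aorta, and 54789 to 109550 CPM in Lard aorta. Heart muscle markers summed to 189.8 to 12848 CPM in Ctrl aortic valve and to no more than 365 in the treated ones. All aorta libraries were on sequencing plate 2, and for the aortic and mitral valves plate 1 held every CHT library.

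TNF (ENSOCUG00000006698) rose in the aorta and aortic valve with CHT and with IR/CHT, from a level at or near 0. In the aorta TNF stood at 0, 0.0635 and 0.495 CPM in Ctrl (lowest, median and highest), at 0.632, 1.33 and 3.67 in CHT, at 0.857, 2.05 and 2.96 in IR/CHT and at 0, 0.106 and 0.179 in Lard. Every CHT and every IR/CHT library lay above every Ctrl library, while Lard lay within the Ctrl range. The log2 fold change of IR/CHT against Ctrl was 4.09 ± 0.64 (SE), adjusted p = 9.68e-06, and 5.25 without Ctrl L571, the highest Ctrl library. Aortic valve levels were 0, 0.0979 and 0.545 CPM in Ctrl, 0.711, 0.996 and 1.74 in CHT and 0.765, 3.09 and 5.6 in IR/CHT. Again neither treated group overlapped with Ctrl, and the log2 fold change was 4.34 ± 0.78 (adjusted p = 4.85e-05) in IR/CHT, or 4.98 without Ctrl L150. Within plate 1 alone, which held all CHT aortic valves, CHT against Ctrl gave 2.83 and did not pass (adjusted p = 0.164). IR/CHT exceeded CHT in the valve by 1.41 ± 0.69 on the log2 scale without passing the test (adjusted p = 0.144). In the mitral valve TNF reached a median of 1.11 CPM in IR/CHT against 0.147 in Ctrl, a log2 difference of 2.14 ± 0.81 just outside the threshold (adjusted p = 0.0514). The pulmonary and tricuspid valves never exceeded 0.795 and 0.949 CPM of TNF, and it was not tested there.

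LTB (ENSOCUG00000006703), the membrane subunit of lymphotoxin, which organises lymphoid tissue, rose most clearly with IR/CHT in the valves of the left heart. Aortic valve LTB stood at 0.294, 0.933 and 1.46 CPM in Ctrl and at 3.77, 6.15 and 8.5 in IR/CHT, without overlap (log2 fold change 2.71 ± 0.52, adjusted p = 9.67e-05). Mitral valve LTB stood at 0.545, 1.07 and 1.47 CPM in Ctrl, 1.07, 2.24 and 5.08 in CHT and 1.58, 3.59 and 6.56 in IR/CHT. Here IR/CHT did not overlap with Ctrl (1.86 ± 0.36, adjusted p = 0.000342), whereas 5 of 6 CHT libraries lay above it (1.25 ± 0.36, adjusted p = 0.033). The CHT call ended without any of 7 of the 12 libraries (over all 12 the value without 1 library ran from 0.94 to 1.44 and the adjusted p reached 0.159) and with plate 1 alone (1.09, adjusted p = 0.24). In the aorta LTB rose in IR/CHT (1.63 ± 0.59, adjusted p = 0.0232), but only 3 of 7 libraries lay above the highest Ctrl library at 4.38 CPM, and the call ended without IR/CHT L566 (adjusted p = 0.0504) and with the main axis of spread as a covariate (0.67, adjusted p = 0.303). LTB and TNF are neighbours in the RefSeq rabbit annotation with no gene between them.

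**Figure D2:**
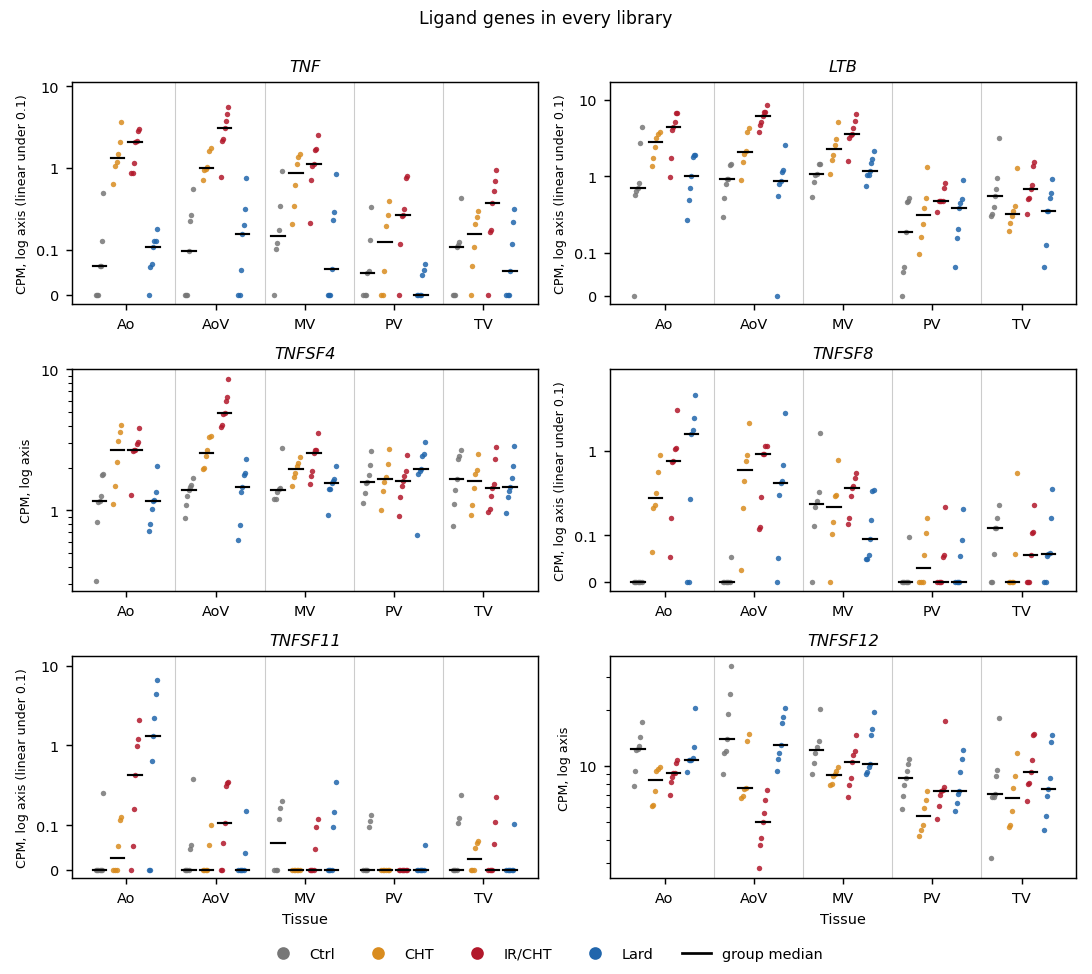
CPM of TNF, LTB, TNFSF4, TNFSF8, TNFSF11 and TNFSF12 in every library, by tissue and treatment, with group medians as bars, on a log axis, linear under 0.1 CPM in panels that reach near 0. TNF in CHT and IR/CHT aorta and aortic valve sits above all Ctrl libraries of the same tissue, and TNFSF11 reaches 6.55 CPM in the aorta of Lard rabbits.

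TNFSF4 (OX40 ligand), a co-stimulator of T cells displayed by antigen-presenting and endothelial cells, rose in both tissues and in steps in the valve. The aortic valve held 0.881, 1.4 and 1.7 CPM in Ctrl, 1.956, 2.57 and 3.37 in CHT and 3.93, 4.93 and 8.51 in IR/CHT, so that the 3 groups did not overlap. IR/CHT exceeded Ctrl by 2.03 ± 0.27 (adjusted p = 6.12e-07) and CHT by 1.04 ± 0.27 (adjusted p = 0.00598) on the log2 scale. With plate as a covariate CHT against Ctrl went from 0.99 to 0.77 and no longer passed (adjusted p = 0.114), nor did it with plate 1 alone (0.87, adjusted p = 0.115). In the aorta TNFSF4 went from a Ctrl median of 1.16 CPM to 2.67 in CHT (1.15 ± 0.34, adjusted p = 0.0136) and 2.68 in IR/CHT (1.25 ± 0.33, adjusted p = 0.00289). Lard held it at a median of 1.16 CPM.

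TNFSF8 (CD30 ligand), carried by activated lymphocytes and myeloid cells, had no read pair in any of the 7 Ctrl aortas. Aortic levels were 0.0632, 0.273 and 0.883 CPM in CHT, 0.0539, 0.764 and 3.04 in IR/CHT and 0, 1.57 and 4.64 in Lard. Against a floor of 3 read pairs pooled over the Ctrl group, the pooled level was at least 13.5-fold higher in CHT, 34.3-fold in IR/CHT and 54.5-fold in Lard (edgeR adjusted p = 0.0139, 0.00074 and 0.00906). Over all Ctrl aortic valves 1 read pair was counted, and the pooled ratio was 77.9 in CHT (95% counting interval 13.6 to 3111) and 85.8 in IR/CHT (15.0 to 3424), with adjusted p = 0.00158 and 0.000404. With plate 1 alone neither passed (adjusted p = 0.11 and 0.0773). TNFSF8 was the only member to pass the test in the aortic valve of Lard rabbits (0, 0.42 and 2.84 CPM, adjusted p = 0.0359), and leaving out any of 13 of the 14 libraries ended that call. The mitral valve held TNFSF8 already in Ctrl (0, 0.235 and 1.64 CPM). The model over all tissues gave chow mitral valve as higher than chow aortic valve (adjusted p = 0.00657). TNFSF8 failed the filter on low counts in the mitral valve and passed it in the aortic valve only with the treated libraries, so nothing is read from that contrast.

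TNFSF11 (RANK ligand) was counted above 0.384 CPM only in the aorta of Lard and IR/CHT rabbits. The 7 Lard aortas held 0, 0, 0.636, 1.32, 2.22, 4.4 and 6.55 CPM and the 7 Ctrl aortas 0 in all but L568, at 0.257. IR/CHT aortas held 0, 0.43 and 2.07 CPM, and CHT aortas no more than 0.126. Lard and IR/CHT both passed the test against Ctrl (log2 fold change 5.63 ± 1.23, adjusted p = 0.0115, and 4.05 ± 1.24, adjusted p = 0.00823), the Ctrl level resting on 4 read pairs in L568. IR/CHT against CHT did not pass (adjusted p = 0.108). The Lard aortas without TNFSF11, L563 and L576, also had no TNFSF8. Without Ctrl L568 the fitted values were 8.19 and 6.61, and with the main axis of spread as a covariate IR/CHT kept 1.84 and did not pass (adjusted p = 0.403). Neutrophil markers, of which 1 of the 3 tested rose in Lard aorta (S100A8, 4.29 ± 1.03, adjusted p = 0.0198), summed to 0.635 to 3.07 CPM in Ctrl aorta and to 0.995, 2.57 and 35.3 in Lard, and their part in the Lard results was not tested.

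The remaining ligands moved less or in the other direction. TNFSF12 (TWEAK), which acts through TNFRSF12A on growth and inflammation, fell in the aortic valve: it stood at 9.02, 14.0 and 34.2 CPM in Ctrl, 6.75, 7.59 and 14.8 in CHT and 2.82, 5.01 and 7.46 in IR/CHT. No IR/CHT library overlapped with Ctrl, and the log2 fold change was -1.82 ± 0.29 against Ctrl (adjusted p = 8.97e-06) and -0.93 ± 0.29 against CHT (adjusted p = 0.0208). The smaller falls in CHT, -0.89 in the aortic valve and -0.59 in the aorta, ended without any of 7 and 6 libraries respectively (adjusted p up to 0.144 and 0.0626), the former also with plate 1 alone (-0.997, adjusted p = 0.141) or plate as a covariate (-0.68, adjusted p = 0.188). The aortic valve value was -0.49 with the main axis of spread as a covariate (adjusted p = 0.102), and the aortic one lay under the fold threshold with DESeq2 (-0.57). Against CHT the call ended without CHT L151 or L244 or IR/CHT L236 (values of -1.08 to -0.799 without any 1 library). TNFSF13 (APRIL), a survival factor of B and plasma cells, rose in the aorta from 0.441, 1.48 and 3.13 CPM in Ctrl to 3.37, 4.7 and 6.16 in IR/CHT without overlap (1.57 ± 0.34, adjusted p = 0.000439). CHT in the aorta gave a log2 fold change of 1.29, which passed under every alternative and without any 1 library. TNFSF13 also passed in the aortic valve (0.83 ± 0.29, adjusted p = 0.0205) and mitral valve (0.71 ± 0.24, adjusted p = 0.0276) in IR/CHT. The valve calls were weak: in the aortic valve 0.79 remained without the libraries that stood apart (adjusted p = 0.056), and in the mitral valve the call ended without IR/CHT L179 or Ctrl L156 or L241 (adjusted p up to 0.0753). Neither valve call passed within plate 1 (0.86 and 0.86, adjusted p = 0.125 and 0.0985) or plate 2 (0.79 and 0.52, adjusted p = 0.201 and 0.447). TNFSF12 and TNFSF13 lie side by side with no gene between them in RefSeq, and read pairs may be shared between them, which was not tested. TNFSF15 (TL1A), an endothelial ligand, rose in the aorta with CHT (2.37 ± 0.84, adjusted p = 0.034, lost without any of 7 libraries) and IR/CHT (2.29 ± 0.82, adjusted p = 0.0216, and 1.73 with the main axis of spread as a covariate, adjusted p = 0.15). Without Ctrl L571 both rises were larger, at 3.24 and 3.16. TNFSF14 (LIGHT), tested in the aortic valve alone, reached 2.03 CPM in IR/CHT and did not pass (1.99 ± 0.91, adjusted p = 0.072).

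Among the receptors, TNFRSF21 (death receptor 6) and TNFRSF1B (TNF receptor 2, found on leukocytes and endothelium) rose in the aorta. TNFRSF21 stood at 3.09, 9.59 and 14.0 CPM in Ctrl, 25.1, 37.0 and 59.9 in CHT, 27.3, 59.5 and 87.7 in IR/CHT and 12.2, 21.8 and 30.9 in Lard. CHT and IR/CHT did not overlap with Ctrl, and 6 of 7 Lard libraries lay above it. The log2 fold changes were 2.04 ± 0.28, 2.62 ± 0.28 and 1.09 ± 0.27 (adjusted p = 3.77e-06, 3.54e-08 and 0.0245). The Lard call ended without Ctrl L568 or Lard L562 or L575 (adjusted p up to 0.0757). TNFRSF1B stood at 0.836, 2.71 and 5.04 CPM in Ctrl, 3.54, 11.3 and 19.0 in CHT and 9.63, 18.5 and 39.8 in IR/CHT. IR/CHT did not overlap with Ctrl (2.98 ± 0.45, adjusted p = 7.03e-06), and 5 of 6 CHT libraries lay above it (1.99 ± 0.45, adjusted p = 0.00152). TNFRSF1B medians in the aortic valve were 14.3 CPM in Ctrl and 33.9 in IR/CHT, but Ctrl reached 55.6 CPM and the comparison did not pass (0.79 ± 0.45, adjusted p = 0.153). In the mitral valve it rose in IR/CHT from 5.95, 9.63 and 17.2 to 11.9, 20.05 and 48.3 CPM (1.30 ± 0.36, adjusted p = 0.00869), but did not pass with plate 1 alone (1.05, adjusted p = 0.177).

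TNFRSF1A (TNF receptor 1, the widely expressed death-domain receptor of TNF) passed the test in the aorta in IR/CHT and in no other comparison of treatments. Levels were 4.5, 10.8 and 17.5 CPM in Ctrl, 12.4, 21.7 and 26.4 in CHT and 16.4, 26.9 and 54.2 in IR/CHT, with 5 of 7 IR/CHT libraries above Ctrl (1.51 ± 0.31, adjusted p = 0.000258). CHT gave 0.77 ± 0.32 (adjusted p = 0.0711). Over the 134 libraries the level of TNFRSF1A within groups followed the main axis of spread with a correlation of 0.93, and TNFRSF1B with 0.88, described here with no p because the axis was set by library-wide differences; 21.4% of the 17005 genes used had a correlation over 0.5. Mean scores on that axis were 0.908 in IR/CHT aorta and -0.502 in Ctrl aorta. With the score as a covariate TNFRSF1A kept 0.42 (adjusted p = 0.013), under the fold threshold, whereas TNFRSF1B kept 1.64 in the aorta (adjusted p = 0.00014) and became a call in the aortic valve in IR/CHT (1.33, adjusted p = 3.74e-09).

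**Figure D3:**
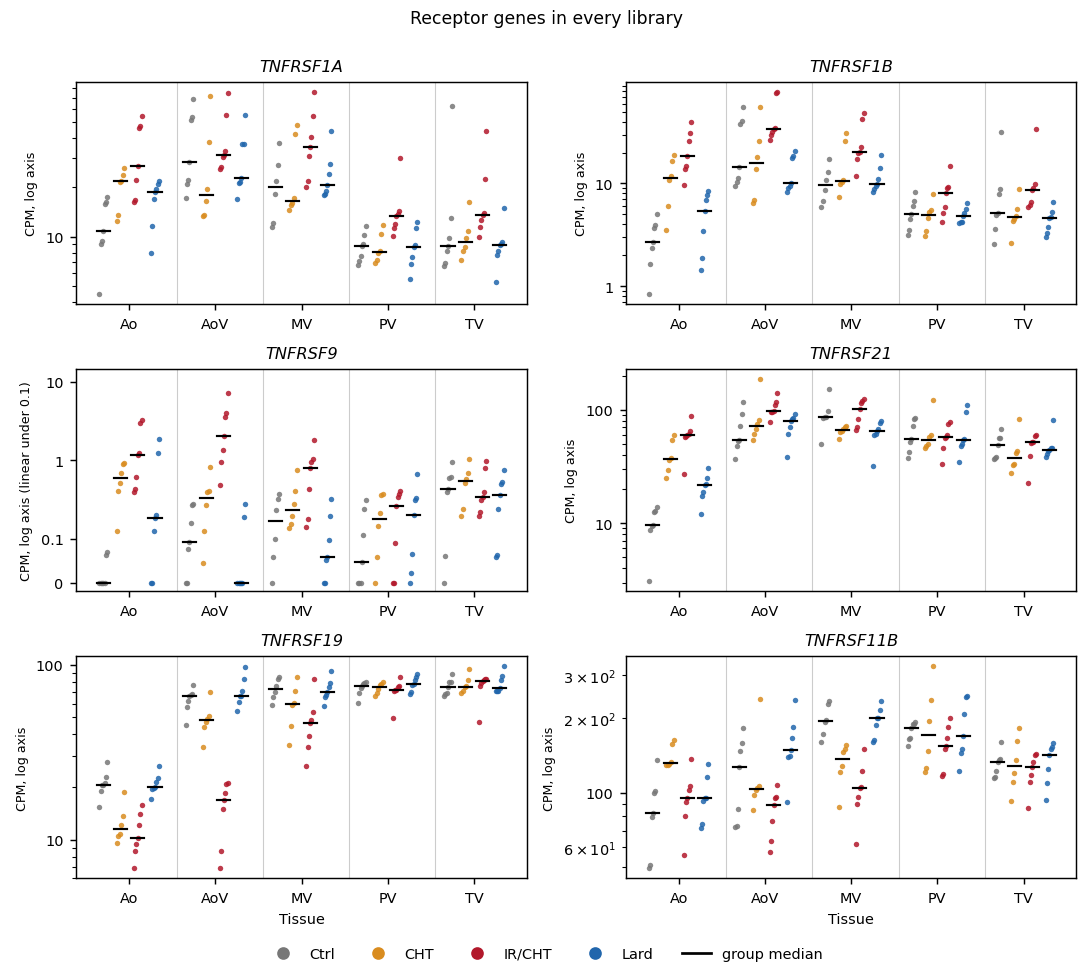
CPM of TNFRSF1A, TNFRSF1B, TNFRSF9, TNFRSF21, TNFRSF19 and TNFRSF11B in every library, by tissue and treatment, with group medians as bars, on a log axis, linear under 0.1 CPM in panels that reach near 0. TNFRSF21 in CHT and IR/CHT aorta (medians 37.0 and 59.5 CPM) lies near its level in Ctrl aortic valve (median 54.5 CPM).

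The balance of both TNF receptors was tested on its own, as the log2 ratio of TNFRSF1B to TNFRSF1A in read pairs. To each count 2 read pairs were added, and exact two-sided permutation tests were adjusted over 20 comparisons. In the aorta the ratio rose from -2.06 ± 0.59 (SD, n = 7) in Ctrl to -0.97 ± 0.54 (n = 6) in CHT (exact p = 0.00583, adjusted 0.0216) and -0.57 ± 0.19 (n = 7) in IR/CHT (exact p = 0.000583, the smallest these groups can give, adjusted 0.00583), with 7 of 7 IR/CHT libraries above Ctrl. The ratio also rose in the aortic valve, from -0.71 ± 0.34 to 0.14 ± 0.22 in IR/CHT (difference 0.85, exact p = 0.000583, adjusted 0.00583) and was also higher than in CHT (0.68, adjusted exact p = 0.00777), although neither receptor alone passed there. The mitral valve ratio gained 0.30 in CHT (adjusted exact p = 0.0216) and 0.38 in IR/CHT (adjusted exact p = 0.0204). Lard lowered it by 0.44 in the aortic valve (from -0.71 to -1.15, adjusted exact p = 0.0283), a call that leaving out 1 library could move to an adjusted p of 0.0683. The ratio compares TNFRSF1B with TNFRSF1A within a library and does not show which of them changed. No comparison passed in the pulmonary and tricuspid valves (adjusted exact p of 0.606 to 0.902). All 20 calls were the same with 0.5 read pairs added in place of 2 and with treatments relabelled only within plates.

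**Figure D4:**
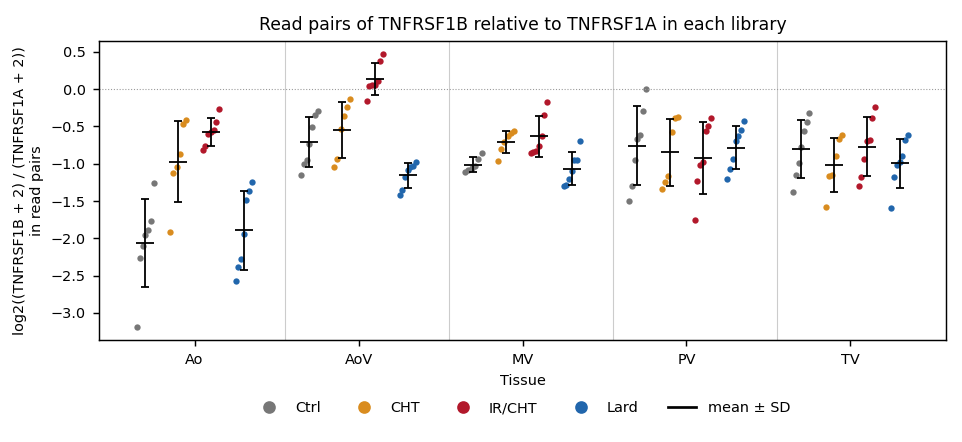
Log2 ratio of TNFRSF1B to TNFRSF1A (2 read pairs added to each count) in every library, by tissue and treatment, with the group mean and SD. In the aorta Ctrl lies at -2.06 ± 0.59 and IR/CHT at -0.57 ± 0.19, and in the aortic valve IR/CHT lies at 0.14 ± 0.22, above all 7 Ctrl libraries.

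TNFRSF9 (4-1BB), a marker of activated T cells and endothelium, rose from near 0. The Ctrl aortas held 2 read pairs in all, and CHT, IR/CHT and Lard aortas reached medians of 0.601, 1.19 and 0.183 CPM. The pooled ratios to Ctrl were 32.7 (95% counting interval 8.69 to 276.007), 81.1 (22.1 to 674) and 27.9 (7.39 to 235.8), with adjusted p = 0.00265, 5.51e-05 and 0.026. The call in Lard ended without any of 7 libraries (adjusted p up to 0.0958). TNFRSF9 in the aortic valve stood at 0, 0.094 and 0.281 CPM in Ctrl, 0.0445, 0.331 and 0.83 in CHT and 0.486, 2.03 and 7.27 in IR/CHT. IR/CHT did not overlap with Ctrl (4.37 ± 0.84, adjusted p = 0.000103) and exceeded CHT (2.96 ± 0.80, adjusted p = 0.00788). TNFRSF8 (CD30, the receptor of TNFSF8) passed in the mitral valve in IR/CHT alone (0, 0.0674 and 0.534 CPM in Ctrl, 0.0969, 0.634 and 1.31 in IR/CHT, 2.22 ± 0.82, adjusted p = 0.0446), a call lost without any of 9 libraries (adjusted p up to 0.0948) and within plate 1 (adjusted p = 0.231) and plate 2 (adjusted p = 0.0693), while the value was 3.46 without Ctrl L156.

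TNFRSF19 (TROY), a receptor of the Wnt-responsive and neural lineages, fell. In the aortic valve it stood at 45.2, 65.9 and 77.1 CPM in Ctrl, 33.9, 48.3 and 69.9 in CHT and 6.85, 16.8 and 21.0 in IR/CHT. The IR/CHT valves lay below every Ctrl and every CHT valve, by -2.05 ± 0.22 (adjusted p = 1.47e-08) and -1.70 ± 0.22 (adjusted p = 7.76e-06) on the log2 scale. In the aorta it fell from a median of 20.6 CPM in Ctrl to 11.4 in CHT (-0.72 ± 0.17, adjusted p = 0.00249) and 10.2 in IR/CHT (-0.89 ± 0.17, adjusted p = 8.66e-05). The mitral valve fell from 73.0 to 46.4 CPM in IR/CHT (-0.66 ± 0.20, adjusted p = 0.0156), below the fold threshold without IR/CHT L179 or with the score of the main axis as a covariate (-0.54 and -0.51), and it did not pass within plate 1 (-0.65, adjusted p = 0.15) or plate 2 (-0.62, adjusted p = 0.114). Lard medians were 19.9, 66.7 and 69.9 CPM in aorta, aortic and mitral valve, and no Lard comparison passed.

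TNFRSF11B (osteoprotegerin) took opposite directions in the aorta and the mitral valve. In the aorta CHT stood at 129, 131 and 164 CPM against 49.3, 82.9 and 135 in Ctrl (0.74 ± 0.20, adjusted p = 0.00654), although only 2 of 6 CHT libraries lay above the highest Ctrl library. IR/CHT stood at 55.7, 95.5 and 137 CPM there and did not pass (adjusted p = 0.392). In the mitral valve Ctrl held 160.3, 195.1 and 235.6 CPM, CHT 87.6, 137 and 156.3, and IR/CHT 61.6, 105 and 149.9, both treated groups without overlap with Ctrl. The falls were -0.60 ± 0.16 in CHT (adjusted p = 0.0181) and -0.96 ± 0.15 in IR/CHT (adjusted p = 3.77e-05). The CHT value lay at the fold threshold and fell under it with DESeq2 (-0.58), without any of 5 libraries (over all 12 the value without 1 library ran from -0.64 to -0.51) and with plate 1 alone (-0.54, adjusted p = 0.149). Lard aortas, in which TNFSF11 was counted in 5 of 7 libraries, held TNFRSF11B at 72.1, 94.7 and 131 CPM, within the Ctrl range.

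TNFRSF25 (death receptor 3, the receptor of TNFSF15) fell in the aortic valve in IR/CHT, from 3.82, 9.82 and 52.7 CPM to 1.71, 3.39 and 11.3 (-1.74 ± 0.63, adjusted p = 0.0237). The Ctrl L150 library, which stood apart, was among 4 whose absence ended the call (adjusted p up to 0.114; the others were IR/CHT L174, L236 and L257). It did not pass within plate 1 (-2.24, adjusted p = 0.0783) or plate 2 (-1.21, adjusted p = 0.263). TNFRSF12A, the receptor of TNFSF12, passed in no comparison of treatments, with aortic medians of 47.8 CPM in Ctrl and 28.7 in IR/CHT (-0.43 ± 0.30, adjusted p = 0.241). Of all members, TNFRSF11B, TNFRSF21, TNFRSF19, TRAF3 and TRAF5 drew the most reads, with mean levels of 138, 60.8, 56.0, 42.7 and 22.7 CPM over all libraries. These are read totals not corrected for transcript length, and no order of expression between genes follows from them.

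Of the 5 TRAF adaptors TRAF4 passed in the aorta and TRAF1 in the aortic valve, each in IR/CHT alone. TRAF3, which restrains the alternative NF-kB route, lay between 27.9 and 68.2 CPM in all 134 libraries and passed in no comparison of treatments. TRAF4 rose in the aorta in IR/CHT (1.84, 3.32 and 5.08 CPM in Ctrl, 3.13, 4.96 and 6.92 in IR/CHT, 0.80 ± 0.25, adjusted p = 0.00862), and kept 0.31 with the main axis of spread as a covariate (adjusted p = 0.338). TRAF1, an inducible adaptor, fell in the aortic valve in IR/CHT (9.5, 12.6 and 29.6 to 5.24, 8.52 and 12.8 CPM, -0.81 ± 0.27, adjusted p = 0.0152), but not without Ctrl L150 or IR/CHT L236, nor with plate 2 alone (-0.46, adjusted p = 0.354). TRAF6, the adaptor shared with interleukin 1 and Toll-like receptors, lay lower in all 7 IR/CHT aortas than in any Ctrl aorta, by -0.49 ± 0.11 on the log2 scale (adjusted p = 0.000592), short of the fold threshold. TRAF5 differed in the same direction by -0.37 ± 0.15 (adjusted p = 0.0461).

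Both TRAF-interacting genes changed. TRAF3IP3, a gene of lymphocytes, rose in 3 tissues. The aorta held 1.29, 1.92 and 5.72 CPM in Ctrl, 4.11, 7.33 and 10.5 in CHT and 7.42, 10.4 and 15.2 in IR/CHT (1.29 ± 0.37, adjusted p = 0.00944, and 1.93 ± 0.36, adjusted p = 8.52e-05). The aortic valve held 1.25, 3.92 and 7.95 CPM in Ctrl and 13.4, 15.7 and 36.5 in IR/CHT, without overlap (2.04 ± 0.34, adjusted p = 2e-05). The CHT rise there (1.12 ± 0.35, adjusted p = 0.0299) ended without CHT L151, L228 or L265 or Ctrl L198 and with plate 1 alone (1.14, adjusted p = 0.144). Mitral valve medians were 3.54 CPM in Ctrl, 8.75 in CHT and 8.74 in IR/CHT (1.29 ± 0.30, adjusted p = 0.00587, and 1.497 ± 0.29, adjusted p = 0.000371), the latter not passing with plate 2 alone (1.25, adjusted p = 0.0755). TRAF3IP2 (Act1, the adaptor of interleukin 17 receptors) rose in the aorta in CHT (4.66, 8.12 and 9.59 to 9.4, 12.5 and 24.9 CPM, 0.89 ± 0.22, adjusted p = 0.00263) and fell in the aortic valve in IR/CHT (8.93, 12.0 and 16.9 to 4.92, 7.07 and 10.8 CPM, -0.72 ± 0.22, adjusted p = 0.00768, and -0.41 with plate 2 alone, adjusted p = 0.343). In the valve it was also lower than in CHT (-0.81 ± 0.22, adjusted p = 0.0099).

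The irradiated and non-irradiated cholesterol groups were compared directly. In the aorta no member passed for IR/CHT against CHT with edgeR or DESeq2 (0.596% of all genes passed), and 11 of 24 had an unadjusted p under 0.05, as did 22.8% of all genes. For the aortic valve TNFSF4 and TNFRSF9 were higher and TNFSF12, TNFRSF19 and TRAF3IP2 lower in IR/CHT, as given above. DESeq2 called 9 members, where 19% of the genes to which it gave an adjusted p passed. The count in the valve lay between 4 and 8 without any 1 library, 8 without CHT L265. In the mitral valve none of 21 passed with either tool (0.189% of all genes passed), and 3 had an unadjusted p under 0.05, near the 13.1% of all genes.

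In the pulmonary and tricuspid valves, which lie on the right side of the heart, no member passed in any comparison with edgeR. In the pulmonary valve 17 members were tested. Unadjusted p-values under 0.05 numbered 1 in CHT, 3 in IR/CHT, 0 in Lard and 4 in IR/CHT against CHT, where 9.97, 15.3, 2.49 and 24.5% of all genes had one. Of all genes 0.159, 0.706, 0 and 0.0761% passed the test itself. DESeq2 called 1 member each in IR/CHT against Ctrl and against CHT there, beside 2.07 and 3.47% of its genes, and for IR/CHT against Ctrl in the mitral valve it called 13 (17%). The nearest with edgeR was TNFRSF1A, with medians of 8.8 CPM in Ctrl and 13.4 in IR/CHT (0.78 ± 0.21, adjusted p = 0.0785). In the tricuspid valve 19 members were tested. Unadjusted p-values under 0.05 numbered 1 in CHT, 0 in IR/CHT, 3 in Lard and 1 in IR/CHT against CHT, where 7.54, 8.15, 8.16 and 9% of all genes had one. The test itself was passed by 0.163, 0.231, 0 and 0% of all genes, and DESeq2 called no member. The member counts at an unadjusted p in both valves are no result about the members. Lard against Ctrl in the mitral valve also gave none (DESeq2 0, 0% of all genes), with 1 member and 1.65% of all genes at an unadjusted p under 0.05.

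The chow-fed Ctrl rabbits gave differences between tissues without treatment. In the model over all tissues 12 of 25 members differed between aortic valve and aorta, where 49.7% of all genes differed, 10 of them higher in the valve (29.9%) and 2 lower (19.9%). The count lay near the share of all genes and is no result about the members as a group. TNFRSF1B was higher in the valve by 3.15 ± 0.44 on the log2 scale (adjusted p = 1.4e-09), TNFRSF21 by 2.75 ± 0.27 (adjusted p = 3.29e-16), TNFRSF1A by 1.65 ± 0.36 (adjusted p = 5.64e-05) and TNFRSF19 by 1.59 ± 0.17 (adjusted p = 5.88e-15). TNFRSF12A was lower by -1.43 ± 0.33 (adjusted p = 9.55e-05), with medians of 14.9 and 47.8 CPM. TRAF6 was lower too (-0.61), under the fold threshold with DESeq2 size factors (-0.51). The others higher in the valve were TNFSF13, TNFSF15, TNFRSF25, TRAF1, TRAF4 and TRAF3IP2. TNFSF15 reached the filter in either tissue only with the treated libraries. With the rabbit as a block TRAF3IP3 also passed (0.64, adjusted p = 0.0258, with 52% of all genes passing). With plate 2 libraries alone 8 of 19 members tested passed (44.3% of all genes), TNFRSF25, TNFSF13 and TRAF1 no longer did and TNFSF15 was not tested. Between mitral and aortic valve 4 members differed (12.2% of all genes): TNFSF8 and TNFRSF11B (0.71) were higher (4.42%) and TNFRSF1B (-1.30) and TNFRSF25 (-1.90) lower (7.75%) in the mitral valve, the last 2 not passing with plate as a covariate (adjusted p = 0.0514 and 0.0521). Nothing is read from TNFSF8 here, since it failed the filter in the mitral valve and passed it in the aortic valve only with the treated libraries. Between pulmonary and aortic valve 13 differed (47.3%), a count likewise near that share, 11 of them lower in the pulmonary valve (29.1%) and 2 higher (18.2%). Among the lower ones were TNFRSF25 (-4.40), TNFRSF1B (-2.27), TNFRSF1A (-2.09) and LTB (-1.802, which failed the filter in the pulmonary valve), and TRAF5 and TRAF6 were higher but under the fold threshold with plate as a covariate (0.57 each). TNFRSF11B was added, higher by 0.59, with the rabbit as a block (adjusted p = 0.00334, with 49.8% of all genes passing). Between tricuspid and mitral valve TNFRSF11B (-0.59) and TNFRSF21 (-0.91) were lower in the tricuspid valve (6.65% of all genes differed, 2.14% lower). With the rabbit as a block 6 members passed (15.8% of all genes), TNFRSF21 and also TNFSF12, TNFRSF12A, TNFRSF1A, TRAF1 and TRAF4 (adjusted p of 0.0177 to 0.043 for these 5), but not TNFRSF11B (-0.52, adjusted p = 0.0408, under the fold threshold), whose call also ended with DESeq2 size factors (-0.56) and without the filter (adjusted p = 0.0804).

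Whether a treatment moved a member differently in 2 tissues was tested as an interaction in the model over all tissues, whose estimates need not equal the difference of the folds given above. For IR/CHT against Ctrl 8 of 25 members responded differently in the aortic valve than in the aorta, where 36.7% of all genes did, so that the count lay near the share of all genes. Each of the 8 had the lower response in the valve, as did 18.1% of all genes. The difference was -2.13 ± 0.58 for TNFRSF1B (adjusted p = 0.00229), -1.93 ± 0.36 for TNFRSF21 (adjusted p = 8.19e-06), -1.37 ± 0.50 for TNFRSF1A (adjusted p = 0.024) and -1.13 ± 0.41 for TRAF4 (adjusted p = 0.0225), all of which rose in the aorta. For TNFSF12 it was -1.37 ± 0.35 (adjusted p = 0.00114), for TNFRSF19 -1.11 ± 0.23 (adjusted p = 5.87e-05), for TRAF3IP2 -1.07 ± 0.28 (adjusted p = 0.00143) and for TNFRSF11B -0.69 ± 0.27 (adjusted p = 0.0373). For TNF the difference was 0.28 ± 1.26 (adjusted p = 0.885), an error too wide to tell the responses apart or alike. With the rabbit as a block 11 members passed (43.6% of all genes), TNFRSF25 (-1.86, adjusted p = 0.0227), TRAF1 (-0.83, adjusted p = 0.0338) and TRAF6 (0.41, adjusted p = 0.0445) being added, and with plate as a covariate 8.

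**Figure D5:**
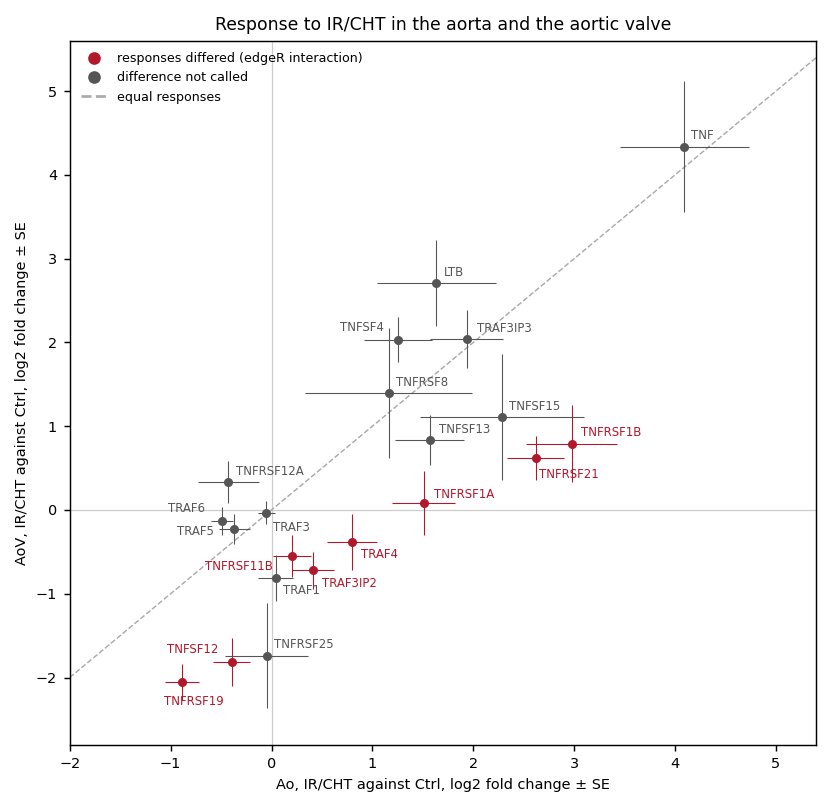
Log2 fold change of IR/CHT against Ctrl in the aortic valve against that in the aorta, with SE bars, for members tested in both tissues apart from TNFSF8 and TNFRSF9, whose Ctrl aortas were at or near 0. The 8 members in red responded differently by the interaction test and all lie below the line of equal response.

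For CHT against Ctrl 3 members responded less in the aortic valve than in the aorta (10.3% of all genes differed, 5.58% with the lower response in the valve): TNFRSF1B by -2.24 ± 0.61 (adjusted p = 0.0106), TNFRSF21 by -1.64 ± 0.37 (adjusted p = 0.00187) and TNFSF13 by -1.23 ± 0.42 (adjusted p = 0.0434). All CHT aortic valves were on plate 1 and all aortas on plate 2. With plate as a covariate TNFRSF1B kept -2.03 (adjusted p = 0.0247) and TNFRSF21 -1.57 (adjusted p = 0.00386), and TNFSF13 did not pass (-1.13, adjusted p = 0.0802). With the rabbit as a block 6 members passed (19.9% of all genes), with TNFRSF11B, TNFRSF1A and TRAF3IP2 added (adjusted p = 0.03, 0.0316 and 0.0241). For IR/CHT the mitral valve differed from the aortic valve in 4 members (18.8%), 2 with a lower response (10.4%) and 2 with a higher one (8.48%). TNFSF4 (-1.44) responded less in the mitral valve, and the falls of TNFSF12 and TNFRSF19 were smaller there by 1.48 and 1.41. The fourth, TNFSF8, failed the filter on low counts in the mitral valve and passed it in the aortic valve only with the treated libraries, its chow level there resting on 1 read pair, so nothing is read from it. The pulmonary valve differed from the aortic valve in 9 members (40.8%), a count near the share of all genes. Lower responses (19.1%) were those of TNFSF4 (-2.13), TRAF3IP3 (-1.91) and TNFSF13 (-1.13), and higher ones (21.6%) those of TNFRSF19 (2.00), TNFSF12 (1.77), TNFRSF25 (2.36) and TRAF1 (1.24). TNFRSF9 failed the filter on low counts in the pulmonary valve and passed it in the aortic valve only with the treated libraries. TNFSF11 failed the filter on low counts in both valves and ended without the filter in this model (adjusted p = 0.063), so nothing is read from either. With the rabbit as a block 11 members passed (45.4% of all genes), TNFRSF21 (-0.75, adjusted p = 0.0262) and TRAF3IP2 (0.59, adjusted p = 0.0323) being added. The tricuspid valve differed from the mitral valve in TNFRSF11B, by 0.83 (8.21%, 2.35% with the higher response), a call lost without the filter (adjusted p = 0.0519), and with the rabbit as a block also in TNFRSF19 (0.67, adjusted p = 0.0278) and TRAF3IP3 (-1.16, adjusted p = 0.0224), 11.9% of all genes then passing. For CHT no member differed between mitral and aortic, pulmonary and aortic or tricuspid and mitral valves (0, 5.11 and 2.2% of all genes did). At an unadjusted p under 0.05 stood 4, 2 and 7 of 25 members, beside 13.1, 18.8 and 12.5% of all genes. With the block 1 member, TRAF3IP3, differed between tricuspid and mitral valve (2.4% of all genes). DESeq2 was not run on these models.

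The signalling partners of the family were read from lists of genes chosen by function, with earlier results of these data known, so the counts are descriptive. Of 17 genes that TNF is known to induce, 15 rose in the aorta in CHT, 16 in IR/CHT and 4 in Lard, beside 14.2%, 22.2% and 2.57% of all genes. The list's median log2 fold change was 2.47, 3.23 and 1.17, beside -0.039, 0.0033 and 0.011 over all genes. The aortic valve had 7 higher and 1 lower in CHT (8.42% and 3.48% of all genes), and 11 rose and 1 fell in IR/CHT (21.1% and 21.7%). CCL2, the monocyte chemokine, rose in the aorta from 1.01 ± 0.33 to 13.7 ± 8.0 CPM (SD) in CHT (3.77 ± 0.42 SE, adjusted p = 1.38e-07), and CXCL10, a T cell chemokine, from 0.316 ± 0.258 to 10.8 ± 7.2 (5.09 ± 0.58, adjusted p = 2.1e-07). PLAU, urokinase, rose in the aortic valve in IR/CHT from 13.8 ± 4.7 to 214 ± 58 CPM (3.94 ± 0.28, adjusted p = 1.24e-11). PTX3, a soluble pattern recognition protein, rose in the aorta in IR/CHT (3.54 ± 0.56, adjusted p = 1.11e-05) and fell in the aortic (-1.64 ± 0.24, adjusted p = 3.85e-06) and mitral valve (-1.19 ± 0.31, adjusted p = 0.0058). Other cytokines also induce these genes, and which signal moved them was not tested.

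Inside the cell, some counts lay near the shares of all genes given for the same comparisons (higher in CHT and IR/CHT were 14.2% and 22.2% for the aorta, 8.42% and 21.1% for the aortic valve, and lower 5.18% and 12.2%, 3.48% and 21.7%), and no result about the lists below is read from them. Among 12 receptor adaptors and cell death genes 2 rose in CHT and 4 in IR/CHT in the aorta, and 3 in each in the aortic valve. BIRC3, an inhibitor of apoptosis bound by TRAFs, rose in the aorta by 2.07 ± 0.28 and 2.245 ± 0.28 (adjusted p = 3.18e-06 and 3.61e-07), and RIPK1, the kinase of the TNFRSF1A complex, in the aortic valve in IR/CHT by 1.46 ± 0.19 (adjusted p = 7.38e-07). Of 14 NF-kB kinases and subunits 3 rose and 1 fell in CHT and 3 rose in IR/CHT in the aorta, while 3 and 5 rose in the aortic valve. REL, the subunit prominent in lymphoid and myeloid cells, rose in the aortic valve from 2.73 ± 1.51 CPM to 12.5 ± 2.9 in CHT and 24.6 ± 5.0 in IR/CHT (2.20 ± 0.33, adjusted p = 1.96e-05, and 3.16 ± 0.33, adjusted p = 1.42e-08). Feedback inhibitors gave 1 higher and 1 lower of 12 in CHT and 4 higher and 1 lower in IR/CHT in the aortic valve. Of 11 tested in the aorta 4 rose and 1 fell in CHT, and 6 rose and 2 fell in IR/CHT, with TNFAIP3 (A20) higher by 0.72 ± 0.15 and 1.05 ± 0.14 (adjusted p = 0.000533 and 1.66e-06) and NFKBIA lower in CHT by -0.86 ± 0.14 (adjusted p = 3.82e-05).

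The shedding list holds genes whose products free TNF and its receptors from the membrane, and their inhibitors. ADAM17, the TNF-converting enzyme, rose in the aortic valve from 51.0 ± 6.0 CPM in Ctrl to 104 ± 22 in CHT and 195.2 ± 31.4 in IR/CHT (1.93 ± 0.15 for IR/CHT, adjusted p = 7.91e-11). Its inhibitor TIMP3 fell there (-1.27 ± 0.20, adjusted p = 1.19e-05). In all 3 of 8 genes of this list rose in CHT and 4 in IR/CHT in the aorta, where 14.2% and 22.2% of all genes did. The aortic valve gave 1 higher and 1 lower in CHT (8.42% and 3.48%) and 3 higher and 2 lower in IR/CHT (21.1% and 21.7%). In the list of RANK-related bone genes all 5 tested rose in CHT and IR/CHT in the aorta and 4 in Lard, beside 14.2%, 22.2% and 2.57% of all genes. In both the aortic and the mitral valve 4 rose in CHT (8.42% and 4.98%), 5 in IR/CHT (21.1% and 11.1%) and 0 in Lard. SPP1 (osteopontin) went from 55.9 ± 23.8 CPM in Ctrl aorta to 494 ± 461 in Lard (3.15 ± 0.60, adjusted p = 0.00447), and MMP9 from 0.111 ± 0.158 to 21.3 ± 40.0 (7.51 ± 1.402, adjusted p = 0.00444), with SDs as large as the means.

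Superfamily genes outside the naming rule were read as well. Only examples that passed the test are given, so they do not show how the rest of that list behaved. EDA, the ligand ectodysplasin, fell in the aortic valve from 11.3 ± 1.6 CPM in Ctrl to 6.33 ± 0.93 in CHT and 2.55 ± 1.19 in IR/CHT (-2.15 ± 0.26 for IR/CHT, adjusted p = 1.46e-07), and in the aorta from 25.0 ± 4.9 to 11.9 ± 4.7 in IR/CHT (-1.04 ± 0.20, adjusted p = 0.000153). Its receptor EDA2R rose in the aorta from 1.95 ± 0.38 to 7.53 ± 2.48 CPM in CHT and 15.3 ± 3.0 in IR/CHT (3.02 ± 0.35, adjusted p = 1.47e-07), and in Lard (1.602 ± 0.34, adjusted p = 0.01). CD27, a lymphocyte receptor, and LTBR, the receptor of LTB, rose in IR/CHT in both tissues (adjusted p of 0.00101 to 0.0345). NGFR rose in the aorta in IR/CHT (1.99 ± 0.69, adjusted p = 0.0183) and fell in the aortic valve, from 27.6 ± 19.3 to 5.97 ± 3.38 CPM in IR/CHT (-2.21 ± 0.46, adjusted p = 0.000301).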

How the data were processed

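Ribosomal-depleted, stranded total RNA libraries were made by the submitters from 10 ng of RNA per sample (SMARTer Stranded Total RNA-Seq v2 Pico), and 2 tables of raw counts of read pairs per Ensembl gene, 1 per sequencing plate, were deposited by the authors, made with the nf-core/rnaseq workflow. The submitters' processing notes name bcl2fastq 2.20 and the build OryCun2.0. Per the study's methods the workflow ran at its default settings apart from read trimming, and no strand option is named, so reads of overlapping and antisense genes may not be told apart. Every value column was matched to a sample by its name, and the rabbit of each library was read from the same names.

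Counts of each tissue were analysed with edgeR 4.0.16 in R 4.3.3 (filterByExpr, TMM scaling, robust quasi-likelihood test, 4 treatments in 1 model), with Benjamini-Hochberg adjustment over all genes tested. Fold changes come from these fits and CPM from a single TMM scaling of all 134 libraries. A model over all tissues, without a rabbit term, gave the contrasts between chow tissues and the interactions, the latter passing on an adjusted p under 0.05 alone. Libraries of 1 rabbit did deviate together: the median correlation of deviations from group means was 0.201 for aorta with aortic valve against -0.00399 for different rabbits, and 0.439, 0.175 and 0.279 for the other valve pairs, so the model was also fitted with the rabbit as a block. Each library of a group came from another rabbit. DESeq2 1.42.0 served for the alternative test and size factors, and the other alternative fits, with the rabbit block, were made with edgeR. In data simulated on the aortic CHT against Ctrl comparison (14449 genes), 59% of 2-fold and 100% of 4-fold changes were recovered, and for the CHT interaction of aortic valve and aorta (15379 genes) 24% and 94%. Each rate is over 100 changed genes, and the rate for members with few read pairs was not tested.

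Named were all members that passed in any comparison, TNF, both TNF receptors and the RANK axis in any case, the 5 members with the most reads, members failing the filter, and examples from up to 3 genes with the smallest p per pathway list and comparison. The naming rule uses no measured value, but the choice of this gene family and of the gene lists was made with earlier results of these data known. Fold-change bounds and counting intervals cover counting error only. The only gene table at hand, RefSeq mOryCun1.1, is of another build and was used for names and neighbours of the 28 members. Positions and sequences are not reported here.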

Additional observations from a re-analysis of the deposited data

Results flagged for a closer look

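Single libraries far from the rest of their group were sought by Dixon's test in 144 groups of members, and 8 were found where chance gives about 1 in 20, or 7.2. Ctrl aorta L568 held 0.257 CPM of TNFSF11 where the others held 0. Lard aorta L564 held 20.4 CPM of TNFSF12 against 9.29 to 12.6. IR/CHT aorta L579 was the lowest of its group for both TNFSF4 (1.29 CPM against 2.64 to 3.84) and TNFRSF21 (27.3 CPM against 57.1 to 87.7). Ctrl aorta L569 was the lowest for TNFRSF21 (3.09 CPM against 8.74 to 14.0) and TRAF3IP2 (4.66 CPM against 7.17 to 9.59). Ctrl aortic valve L261 held 0.0526 CPM of TNFSF8, a single read pair, where the others held 0. IR/CHT aortic valve L194, which stood apart on the main axis of spread, held 36.5 CPM of TRAF3IP3 against 13.4 to 19.1.

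Responses that differed between 2 tissues by the interaction test were as follows, as log2 differences with the tissue named first minus the other. For CHT in aortic valve and aorta they were -1.23 for TNFSF13, -2.24 for TNFRSF1B and -1.64 for TNFRSF21. For IR/CHT in the same tissues they were -1.37 for TNFSF12, -0.69 for TNFRSF11B, -1.11 for TNFRSF19, -1.37 for TNFRSF1A, -2.13 for TNFRSF1B, -1.93 for TNFRSF21, -1.13 for TRAF4 and -1.07 for TRAF3IP2. For IR/CHT in mitral and aortic valve they were 1.48 for TNFSF12, -1.44 for TNFSF4, -5.85 for TNFSF8 (which failed the filter in the mitral valve) and 1.41 for TNFRSF19. For IR/CHT in pulmonary and aortic valve they were -4.17 for TNFSF11 (which failed the filter on low counts in both valves and did not pass without the filter in this model), 1.77 for TNFSF12, -1.13 for TNFSF13, -2.13 for TNFSF4, 2.00 for TNFRSF19, 2.36 for TNFRSF25, -3.43 for TNFRSF9 (which failed the filter in the pulmonary valve), 1.24 for TRAF1 and -1.91 for TRAF3IP3. For IR/CHT in tricuspid and mitral valve it was 0.83 for TNFRSF11B.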

How the results depend on the processing

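Of 64 member values that passed within a tissue, 38 passed under every alternative other than leaving out a library, 36 also without any 1 library, and 0 reversed. With a fit of only the 2 groups compared, the number of members passing was 8 (CHT), 9 (IR/CHT) and 0 (Lard) in the aorta, and 2 (CHT), 9 (IR/CHT against CHT) and 0 (Lard) in the aortic valve. DESeq2 gave 9 for IR/CHT against CHT in the aortic valve, 13 for IR/CHT in the mitral valve, and 1 each for IR/CHT against Ctrl and against CHT in the pulmonary valve, where it called 19, 17, 2.07 and 3.47% of the genes with an adjusted p. With plate as a covariate the aortic valve gave 3 in CHT and 0 in Lard, with plate 1 alone 0 and 0 (mitral valve CHT 1), and with plate 2 alone 7 in IR/CHT and 0 in Lard (mitral valve IR/CHT 4). With the main axis of spread as a covariate, an alternative chosen after seeing the data, IR/CHT against CHT in the aortic valve gave 9 and Lard 0. Without the 7 libraries that stood apart, likewise chosen afterwards, Lard gave 0.

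In the model over all tissues the chow contrast of mitral and aortic valve gave 2 without the filter and 2 with plate, and that of tricuspid and mitral valve 1 with DESeq2 size factors, 1 without the filter and 6 with the rabbit block. The response to CHT in tricuspid against mitral valve gave 1 with DESeq2 size factors, 1 with plate and 1 with the block. The response to IR/CHT there gave 0 without the filter, 2 with plate and 3 with the block. The response to CHT in aortic valve against aorta gave 6 with the block, which moved no other count by over 1.5 times. Blocked within a tissue, no fit was possible because each rabbit gave 1 library. Leaving out libraries of the model over all tissues was not run.

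Without any 1 library the members passing numbered 11 to 13 (CHT), 12 to 15 (IR/CHT) and 2 to 4 (Lard; 2 without Ctrl L568 or Lard L562) in the aorta. In the aortic valve they numbered 3 to 6 (CHT; 3 without CHT L228 or L265), 11 to 13 (IR/CHT), 4 to 8 (IR/CHT against CHT) and 0 to 1 (Lard). In the mitral valve they numbered 1 to 3 (CHT; fewest without CHT L157 or L266 or Ctrl L278) and 4 to 10 (IR/CHT; 4 without IR/CHT L179). IR/CHT gave 0 to 1 in the pulmonary valve (1 without IR/CHT L259) and 0 to 2 in the tricuspid valve (2 without Ctrl L168). The cause of these shifts was not tested. At 0.1 CPM the smallest library held 1.36 read pairs, which limits TNF, TNFSF8, TNFSF11, TNFSF15 and TNFRSF9.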

Other observations

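Markers of other cells moved in the same comparisons as the superfamily, and their part in its results was not tested. The counts below stand beside 14.2% of all genes higher and 5.18% lower in CHT aorta, 22.2% and 12.2% in IR/CHT aorta, 21.1% and 21.7% in IR/CHT aortic valve, and 11.1% and 6.65% in IR/CHT mitral valve, and a count near those shares is no result about the markers. Of 9 endothelial markers 8 rose in the aorta in both CHT and IR/CHT, and 1 rose in IR/CHT in the aortic and mitral valves. Of the B and plasma cell markers tested, 2 rose in the aorta in CHT and 3 rose and 1 fell in IR/CHT, and 4 rose and 1 fell in the aortic valve in IR/CHT. Dendritic cell markers rose in 2 of 3 cases in IR/CHT aorta and in 3 of 3 in IR/CHT aortic valve. Of the neutrophil markers 3 could be tested in aorta and 5 in aortic valve, and 2 rose in each in IR/CHT and 1 in Lard aorta (2.57% of all genes higher). The single natural killer cell marker tested, NCAM1, which nerve and heart muscle cells also express, fell in IR/CHT by 1.14 in the aorta, by 1.71 in the aortic valve and by 0.92 in the mitral valve on the log2 scale (adjusted p = 2.02e-05, 4.49e-10 and 4.79e-06).

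Among 11 fibroblast and interstitial cell markers 4 rose and 1 fell in the aorta and 1 rose and 5 fell in the aortic valve in IR/CHT. In the aortic valve 8 of 9 heart muscle markers fell in both CHT (3.48% of all genes lower) and IR/CHT. In the aorta 5 of 8 rose and 1 fell in IR/CHT. The sum of the 9 heart muscle markers had a median of 331.9 CPM in IR/CHT aorta and 690.9 in Ctrl aorta. The highest IR/CHT aorta held 3217.7 CPM and the highest Ctrl aorta 773.5. A rise across the whole group is therefore not shown. Smooth muscle markers fell in 7 of 8 cases in the aorta in IR/CHT, while 3 rose and 5 fell in the aortic valve. Of the adipocyte markers 1 rose and 1 fell of 5 in the aorta, 1 rose and 2 fell of 3 in the aortic valve and 3 of 5 fell in the mitral valve in IR/CHT.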
